A study of Mus musculus with 28 samples.

Results

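Skin from the wound site was compared between day 7 and day 5 of natural healing, the interval in which the inflammatory phase gives way to tissue formation. The comparison took all 29068 gene symbols of the count matrix in 4 libraries labelled Day7 and 4 labelled Day5, 8 of the 28 libraries in the series. All 8 came from MLKL+/+ mice on the C57BL/6J background, 8 weeks of age, in which a round punch wound had been cut through the back skin to the fascia and left to heal without any other treatment. The methods state that both sexes were used and that the whole wound was taken, with its scab and epithelial margins, so each library mixes scab, granulation tissue, new epidermis and marginal skin. The labels number the replicates but do not state that each was a separate mouse, and p-values therefore measure the spread between these libraries. The labels start the series at Day0, whereas the methods start it at day 1 and call the later time points as the labels do.

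In the early wound, neutrophils and monocytes enter from the blood along gradients of chemokines, and IL-1, TNF and IL-6 made by leukocytes and keratinocytes keep the recruitment going. These signals then decline, macrophages change their products, and fibroblasts lay down and contract new matrix. Hair follicles hold a growing shaft, built of hair keratins cross-linked by keratin-associated proteins, inside a sleeve called the inner root sheath, and both form only while a follicle is in its growth phase, anagen. Anagen is started by signals between the dermal papilla at the follicle base and the stem cells of the bulge, in which Wnt and Shh take part.

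The 8 libraries were alike in depth, from 39321598 to 40368801 counts. Epidermal transcripts were present throughout, the 9 basal epidermis markers summing to 3392 to 3795 CPM (counts scaled to the normalised library total) on day 5 and 3239 to 3710.3 CPM on day 7. Skeletal muscle and brown fat transcripts were present as well, the latter led by Ucp1, and are given below. Every library held 2814 to 3722 counts of the Y-linked gene Ddx3y and at most 6 counts of Xist, the pattern of male tissue. No library therefore looked female, although the methods state that both sexes were used. Day 5 replicate 4 stood apart by gene length. Its log2 CPM, set against the other 3 libraries of the day, had a Spearman correlation with gene length of -0.65 across genes, its shortest quartile of genes had a median 0.23 higher and its longest quartile a median 0.24 lower on the log2 scale. Day 7 replicate 4 had the same trend at a smaller size, with a correlation of -0.36 and medians of 0.096 and -0.083. The change from day 5 to day 7 itself had a correlation with length of 0.091 over 14451 genes, and of -0.0076 when both replicates numbered 4 were left out. List counts that moved by 2 or more genes without 1 or both of these libraries are given below with and without them.

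**Figure D1:**
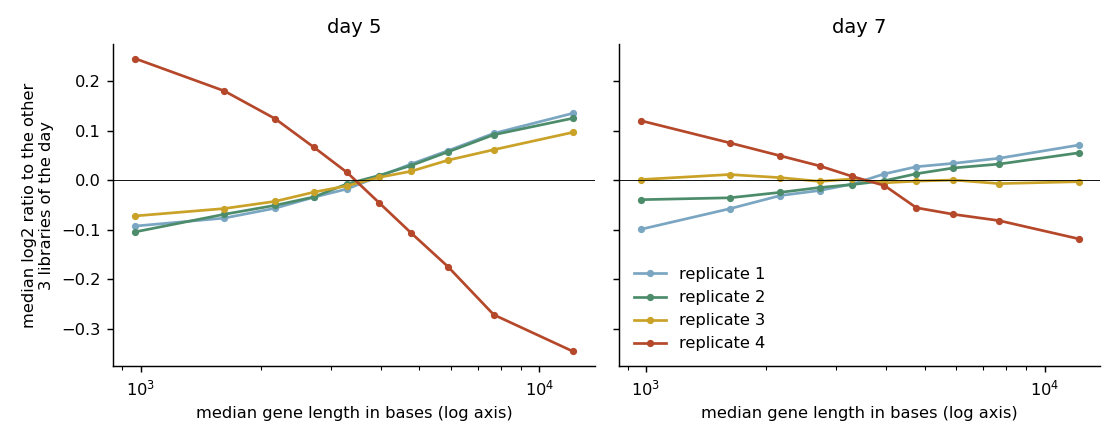
Median log2 ratio of each library to the other 3 libraries of its day (y axis), in 10 bins of genes ordered by length (x axis, median length in bases, log scale), for day 5 and day 7. Replicate 4 slopes downward on both days, from 0.245 to -0.345 on day 5 and over a smaller range on day 7, while the other libraries slope gently upward or stay flat.

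Between day 5 and day 7, 2622 of 16680 tested genes were higher on day 7 (15.7%) and 2522 were lower (15.1%) at an adjusted p under 0.05 (quasi-likelihood test in edgeR, adjusted by Benjamini-Hochberg). The median log2 fold change of all tested genes was 0.014. Under the limits used in the study, a log2 fold change over 1.5 with an unadjusted P under 0.05, 326 genes were higher (1.95%) and 164 lower (0.983%). In 2474 genes (14.8%) the 4 day 7 libraries all lay above the 4 day 5 libraries, and in 2790 (16.7%) all lay below. Without the replicates numbered 4 on both days, the counts were 3347 higher and 3386 lower, and 4903 of the 5144 original calls (95.3%) were called again, none with the opposite sign. Where the 2 days did not overlap and the day with more averaged at least 10 CPM, the largest rises were those of the keratin-associated genes Krtap2-4, Krtap19-3 and Krtap11-1, the inner root sheath keratin Krt72 and the predicted gene Gm11567, with log2 fold changes from 8.51 to 9.72. These values rest on few day 5 counts, and their order is uncertain. Leaving out 1 day 5 library raised Krtap2-4 from 9.72 to 10.65 (replicate 1), Gm11567 from 9.12 to 10.41 (replicate 2) and Krt72 from 8.51 to 9.19 (replicate 4). The largest falls under the same limits were those of the acute phase genes Orm2 (-4.35), Saa2 (-4.16) and Saa1 (-3.96), the chitinase-like Chil3 (-4.17) and the B cell chemokine Cxcl13 (-3.97).

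**Figure D2:**
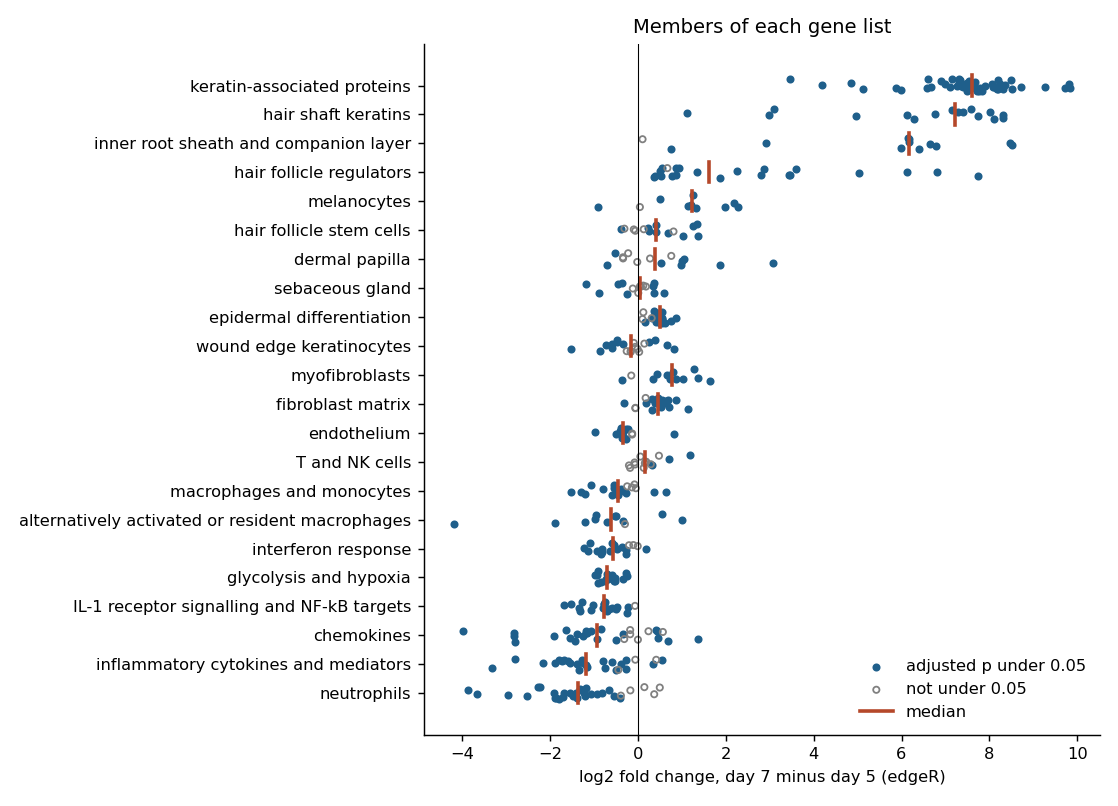
Log2 fold change from day 5 to day 7 (x axis, edgeR) of each tested member of 22 gene lists (y axis), with filled points for an adjusted p under 0.05, open points for the others and a bar at each list's median. Hair shaft, inner root sheath and keratin-associated genes lie far to the right, with medians from 6.17 to 7.61, and neutrophil, cytokine and chemokine genes lie to the left, with medians from -1.35 to -0.93.

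Neutrophil transcripts were lower on day 7. Of 32 tested markers 27 fell, where 15.1% of all tested genes did, none rose, and the list's median log2 fold change was -1.35. In bulk tissue, fewer neutrophils, less of these RNAs per cell and less from other cells that also make them cannot be told apart. The same holds for every cell type below. S100a9, a subunit of the calprotectin complex that fills the neutrophil cytosol, stood at 1053, 859, 981 and 1017 CPM in the day 5 libraries and at 305, 560.1, 372 and 473 CPM in the day 7 libraries. Its partner S100a8 gave 589, 397, 466 and 474 CPM on day 5 and 139.9, 284, 179 and 213 CPM on day 7. The 2 groups did not overlap for either gene, but replicate 2 of day 7 came closest to day 5 in both. S100a9 fell 2.27-fold (log2 fold change -1.18 ± 0.14 SE, adjusted p = 1.98e-05) and S100a8 2.34-fold (-1.23 ± 0.17, adjusted p = 7.66e-05). Per length, they still stood at 808 ± 210 FPKM (SD, n = 4) and 515 ± 152 FPKM on day 7.

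Lcn2, the iron-binding lipocalin of neutrophil granules and of inflamed epidermis, had a larger fold change. It gave 478, 464, 446 and 576 CPM on day 5 against 31.4, 34.1, 31.1 and 36.0 CPM on day 7, a 14.7-fold fall (log2 -3.87 ± 0.089, adjusted p = 1.53e-12). Cxcr2, the receptor by which neutrophils follow CXC chemokines, went from 80.8 to 88.7 CPM over the day 5 libraries to 21.6 to 26.7 CPM over the day 7 libraries (3.45-fold lower, adjusted p = 2.35e-10). Ngp and Mmp8, granule genes made mostly during maturation in the marrow, changed by -3.66 and -2.94. The 5 members that did not pass the test were Mpo, Elane, Camp, Stfa3 and Padi4. Mpo, Elane and Camp, which encode granule proteins of immature cells, had at most 24 counts in any of the 8 libraries.

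Cytokine transcripts fell with them. Of 27 tested cytokines and mediators 22 fell, 2 rose, and the median was -1.18. Il1b, the leukocyte form of IL-1, stood at 597, 496, 569.7 and 575 CPM on day 5 and at 162, 202, 164 and 205 CPM on day 7, with no overlap and a 3.03-fold fall (log2 -1.60 ± 0.088, adjusted p = 5.86e-09). Its natural antagonist Il1rn fell 2.36-fold in the same libraries, from 206 ± 14.2 to 86.6 ± 7.96 CPM (SD, n = 4). Il6, which drives the acute phase response, gave 11.3, 9.55, 8.82 and 10.8 CPM on day 5 and 1.53, 1.01, 1.53 and 1.66 CPM on day 7. Il6 fell 6.98-fold (log2 -2.80 ± 0.15, adjusted p = 5.41e-09). Nos2, the inducible nitric oxide synthase of activated macrophages, fell 9.95-fold, from 74.1 to 81.1 CPM on day 5 to 6.94 to 8.74 CPM on day 7. The groups stood far apart for Nos2 in every library. Tnf fell 2.52-fold (23.9 ± 2.09 to 9.40 ± 1.14 CPM), Osm, a cytokine of the IL-6 family, 2.61-fold, and Ptgs2, the inducible cyclooxygenase, 3.22-fold.

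The 2 cytokines that rose were both of the epidermal IL-36 group, given in the matrix under their older names, but the group went both ways. Il1f9, its most abundant member here, fell by 0.38 on the log2 scale (49.9 to 37.9 CPM, adjusted p = 0.00674), with no overlap between the days. Il1f6 rose by 0.56 on the log2 scale (adjusted p = 0.031), but its day 5 and day 7 libraries overlapped and the call was lost when any of 5 libraries was left out (day 5 replicates 2 and 3, day 7 replicates 2, 3 and 4). Il1f8 rose by 0.35, and no cytokine of the list was called higher without day 5 replicate 2 or without day 7 replicate 2, 3 or 4. Il11, Tslp and Il18 did not pass the test. Of the 3 members with too few counts for the test, Il17a, the T cell cytokine that acts on keratinocytes and neutrophil recruitment, had 4 to 19 counts in the day 5 libraries and 0 counts in each day 7 library, where a count of 0 allows a level of up to 3 counts. Csf2 and Il20 had at most 10 counts in any library.

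Chemokines followed the cytokines, with 18 of 29 lower, where 15.1% of all tested genes were, and a median of -0.93. Another 5 of the 29 were higher, near the 15.7% of all tested genes. Cxcl2, a ligand of Cxcr2, stood at 386, 319, 341 and 432 CPM on day 5 and at 113, 149.5, 99.6 and 140.3 CPM on day 7 (2.91-fold lower, log2 -1.54 ± 0.12, adjusted p = 2.62e-07). Cxcl5, which binds the same receptor, fell 2.62-fold. Ccl2, which recruits monocytes, gave 43.6 to 55.8 CPM on day 5 and 12.6 to 14.8 CPM on day 7, a 3.73-fold fall (adjusted p = 8.13e-10), and Ccl3 fell 3.09-fold. Cxcl13 had the largest fall of the list, 15.7-fold, from 71.9 to 95.3 CPM to 4.52 to 5.92 CPM. The 5 that rose were Ccl17, Ccl22, Ccl24, Ccl11 and Cxcl9. Ccl17, Ccl22, Ccl24 and Ccl11 are known as chemokines of type 2 immunity, and Cxcl9 is induced by interferon gamma. At that share, nothing particular to type 2 immunity is read from these 5. Ccl17 rose from 0.448 ± 0.204 to 1.16 ± 0.21 CPM (SD, n = 4, log2 1.38 ± 0.34, adjusted p = 0.00635), from 7 to 25 counts a library on day 5.

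The promoters of Il6 and Cxcl2 are shown because both genes fell and both are textbook targets of NF-kB, the factor downstream of IL-1 and TNF receptors. The 250 bases before each start site are from RefSeq (GRCm38.p6), Il6 at chr5:30012864-30013113 and Cxcl2 at chr5:90903649-90903898, both on the plus strand. Capitals mark each match to an NF-kB motif, GGG followed by any 2 bases and TTTCC, searched on both strands.
Il6: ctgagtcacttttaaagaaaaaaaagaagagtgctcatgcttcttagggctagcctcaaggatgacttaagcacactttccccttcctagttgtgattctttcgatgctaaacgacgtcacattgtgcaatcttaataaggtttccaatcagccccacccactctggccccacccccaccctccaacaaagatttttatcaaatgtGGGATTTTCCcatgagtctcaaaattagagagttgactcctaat
Cxcl2: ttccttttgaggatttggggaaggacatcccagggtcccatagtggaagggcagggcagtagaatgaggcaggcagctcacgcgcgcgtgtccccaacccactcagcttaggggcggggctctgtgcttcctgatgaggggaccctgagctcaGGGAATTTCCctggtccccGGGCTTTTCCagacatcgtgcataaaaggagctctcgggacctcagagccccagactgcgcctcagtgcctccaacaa
The match begins 44 bases before the start of Il6, and in Cxcl2 matches begin 97 and 78 bases before it. This motif was present in 1.41% of all 32851 promoters of this length, in 12 of 152 promoters (7.89%) of genes lower by the study's limits and in 1 of 285 (0.351%) of genes higher by them. Of the 23 chemokine promoters matched, 5 held it, those of Cxcl1, Cxcl2, Cxcl3, Ccl9 and Ccl20, of which Ccl20 did not pass the test. Of 23 cytokine promoters only 2 held it, those of Il6 and Il1rn. In the list of IL-1 receptor signalling and NF-kB output, given below, it was in 4 of 20. None of the 31 promoters of the neutrophil list, which had the lowest median, held it. A match is a string of letters and no measure of binding, and several promoters can belong to 1 gene.

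Genes of IL-1 receptor signalling and NF-kB output were lower almost throughout, 19 of 20 with none higher and a median of -0.76. Nfkbiz, a nuclear co-regulator induced by IL-1, had the largest fall, from 79.9 ± 5.74 to 24.5 ± 1.87 CPM (SD, n = 4, log2 -1.69, adjusted p = 6.82e-10). Tnfaip3, the deubiquitinase A20 that limits NF-kB signalling, fell by 1.52 on the log2 scale. Ripk2 was the member that did not pass the test, at -0.063. Inhibitors of the pathway, such as Tnfaip3 and Nfkbia, were among the genes that fell.

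**Figure D3:**
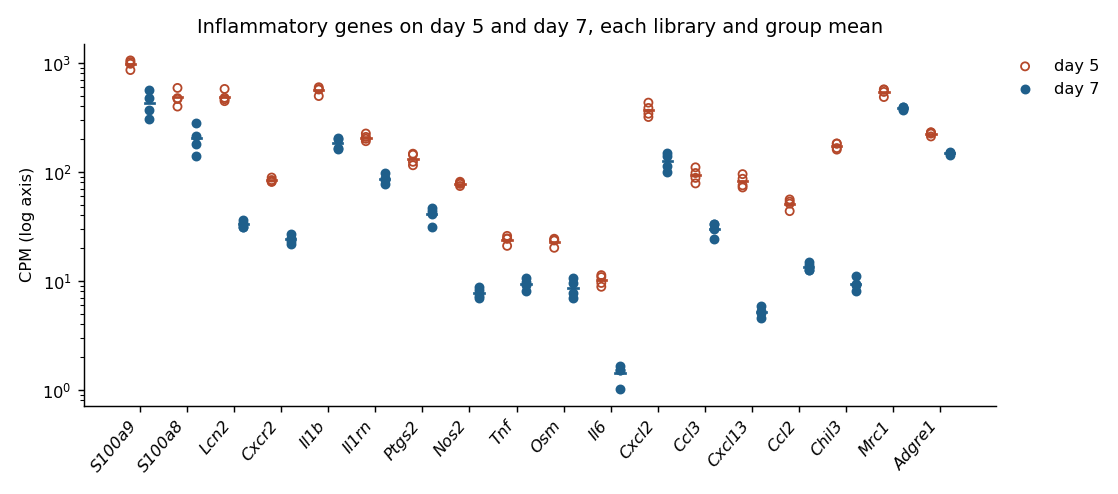
CPM (y axis, log scale) of 18 inflammatory genes in each day 5 library (open circles) and each day 7 library (filled circles), with bars at the group means. The groups do not overlap for any gene shown, and the gap is widest for Lcn2, Nos2, Cxcl13 and Chil3 and narrowest for Mrc1 and Adgre1.

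Macrophage transcripts were lower as well, with a smaller median. Of 20 macrophage and monocyte markers 14 fell, 2 rose, and the median was -0.44. Adgre1, the F4/80 antigen of tissue macrophages, stood at 229.5, 231, 224 and 211 CPM on day 5 and at 152, 148, 150.2 and 141.5 CPM on day 7, which was 1.5-fold lower (log2 -0.58 ± 0.056, adjusted p = 2.10e-06). Cd14, the lipopolysaccharide co-receptor, fell most (log2 -1.53, from 354 ± 36.2 to 121 ± 14.5 CPM). The members that rose were Gpnmb, a glycoprotein of lipid-laden and lysosome-rich macrophages that melanocytes also make (0.65, from 199 ± 11.1 to 309 ± 22.8 CPM), and the lysosomal protease Ctsk (0.37).

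Genes linked to alternative activation or residence mostly fell. Of 12, 9 fell, where 15.1% of all tested genes did, and 2 rose, where 15.7% did. Chil3, a secreted chitinase-like protein of monocytes and macrophages, fell 18.1-fold, from 160 to 182 CPM to 8.08 to 11.1 CPM. Mrc1, the mannose receptor, fell 1.40-fold, from 541 ± 39.1 to 382 ± 11.9 CPM. Retnla, a secreted protein induced by IL-4, moved the other way, from 19.98, 21.7, 18.3 and 29.3 CPM to 40.1, 43.5, 42.9 and 52.2 CPM, 2.02-fold higher (log2 1.01 ± 0.13, adjusted p = 2.41e-05). Mgl2, a lectin of dermal macrophages and dendritic cells, rose by 0.56. Of genes of resolution and of the clearance of dead cells, 9 of 16 fell (12 without day 5 replicate 4), among them Socs3, the feedback inhibitor of IL-6 signalling (-1.92), and Alox15, the lipoxygenase that forms lipid mediators of resolution, rose (0.54). Il10 was among those that fell (-0.80).

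Most T and NK cell, Langerhans cell and mast cell genes did not pass the test, and with 15.7% of all tested genes higher and 15.1% lower, nothing particular to these cells is read from the counts. No T or NK cell gene of 14 fell and 3 rose: Foxp3, the regulator of regulatory T cells (1.18 ± 0.25, from 1.12 ± 0.344 to 2.52 ± 0.548 CPM), Icos (0.70) and Il2rb (0.32). Of 10 Langerhans cell and MHC class II genes 3 rose, Itgax, Epcam and Cd207, and 7 rose without day 5 replicate 4 alone or without both replicates numbered 4. Of 7 mast cell genes Mrgprb2 and Mcpt4 rose and Fcer1a fell, and leaving out 1 library left 0 to 3 that rose. Interferon response genes were mostly lower (14 of 18, 1 higher, median -0.57), with Rsad2, an antiviral enzyme, lowest at -1.22 and Gbp3, a guanylate-binding protein, higher at 0.19, a call lost when any of 5 libraries was left out (day 5 replicates 1, 2 and 3, day 7 replicates 1 and 4).

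Hair follicle structural transcripts, close to absent on day 5, were present in all 4 day 7 libraries. Of 12 inner root sheath and companion layer genes 11 rose, where 15.7% of all tested genes did, with a median log2 fold change of 6.17 and a summed level of 124 to 147 CPM on day 5 and 1596 to 2109 CPM on day 7. Most of the day 5 sum came from the transcription factors Cux1 (90.9 CPM) and Gata3 (20.3 CPM), which are not structural genes. Krt71, a type II keratin of the inner root sheath, had 4.40, 2.55, 4.45 and 4.32 CPM on day 5 and 331, 415, 374 and 451 CPM on day 7. The lowest day 7 library was thus far above the highest day 5 library, and the rise was 101-fold (log2 6.66 ± 0.16, adjusted p = 1.99e-12). Its type I counterparts Krt25 and Krt27 rose 70.3-fold and 111-fold, and Tchh, trichohyalin, the protein that hardens the sheath, rose from 5.81 to 8.43 CPM to 522 to 699 CPM, 83.7-fold. Per length the sheath genes reached 179 ± 24 FPKM (Krt71, SD, n = 4), 126 ± 18.6 FPKM (Krt27) and 104 ± 14.8 FPKM (Tchh). Of the other members, Gata3, a sheath transcription factor that T cells also use, rose by 0.74, and Cux1, widely expressed, did not pass the test at 0.11.

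All 16 hair shaft keratins rose, with a median of 7.23. Krt86 of the hair cortex had 9, 22, 4 and 13 counts on day 5 and 2000, 2675, 2191 and 2637 counts on day 7. This is 0.315 ± 0.199 CPM against 60 ± 8.28 CPM (SD, n = 4), 191-fold higher (log2 7.57 ± 0.21, adjusted p = 5.61e-12). Krt85, among the first hair keratins made in the matrix, gave 0.364 to 0.754 CPM on day 5 and 33.8, 61.9, 47.5 and 53.1 CPM on day 7. Krt35, its early type I partner, gave 0.234 to 0.440 CPM on day 5 and 13, 28.9, 21.7 and 24.6 CPM on day 7. Replicate 1 was the lowest of the day 7 libraries for all 3 of these keratins, and no day 7 library came near the day 5 range. Krt33b rose 273-fold from 2 to 9 counts a library, and Krt34 319-fold from 3 to 13 counts (log2 8.32, and 9.02 without day 5 replicate 4, which held the 13). The smallest rise of the list was that of Krt36 (1.12).

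Keratin-associated proteins, the cross-linking matrix of the shaft, rose in all 51 genes that passed the filter on low counts, out of 56 in the matrix. A gene of this family passed mainly through day 7, where the family was high, so the count of those tested carries no weight beyond the values. Summed over all 56 the family had 4.60, 8.20, 4.14 and 7.50 CPM on day 5 and 1010, 1297, 924 and 1184 CPM on day 7. Krtap11-1 had 7, 2, 5 and 6 counts on day 5 and 1427, 2177, 1958 and 2114 counts on day 7, 364-fold higher (log2 8.51 ± 0.22, adjusted p = 2.64e-12). Krtap2-4 had 3 counts over the day 5 libraries and 3028 over those of day 7, a ratio of 1006 with an exact 95% counting interval of 344 to 4879. Krtap19-4 and Krtap31-1 had no day 5 count. Their day 7 levels were at least 153-fold and at least 104-fold higher, against a floor of 3 counts over the group. The median of the family was 7.61, and 7.53 with these genes at their bounds. Of the 5 untested members Krtap20-2 and Krtap5-1 had more counts on day 7 (9 to 34 and 8 to 30) than on day 5 (at most 4 and 0), and Krtap5-2, Krtap5-3 and Krtap13 had at most 3 in any library. Members of the family are close in sequence and the counting of shared reads is not stated, so the values of single genes are less certain than the sum. The median length of the family was 833 bases against 3475 for all tested genes, and its median log2 fold change was 7.61 with a correction for gene length and 7.68 without the replicates numbered 4.

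**Figure D4:**
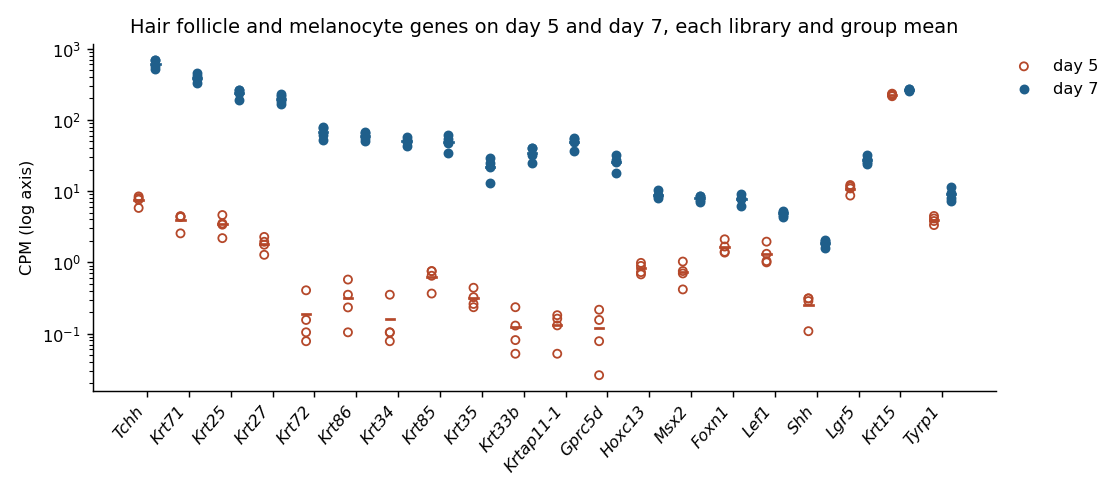
CPM (y axis, log scale) of 20 hair follicle and melanocyte genes in each day 5 library (open circles) and each day 7 library (filled circles), with bars at the group means. Structural genes such as Krt71 (101-fold) and Krt86 (191-fold) lie far apart on the 2 days, transcription factors lie closer, and Krt15 rose by 0.25 on the log2 scale.

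The promoters of Krt71 and Krt27 are shown as a type II and type I pair of the inner root sheath that rose together. They are the 250 bases before the start site in RefSeq (GRCm38.p6), Krt71 at chr15:101743098-101743347 and Krt27 at chr11:99351119-99351368, both on the minus strand and written in the direction of transcription. Capitals mark TATAAA, the TATA box core, searched on both strands together with CTTTGAA, a LEF/TCF motif, and the NF-kB motif, neither of which is in these windows.
Krt71: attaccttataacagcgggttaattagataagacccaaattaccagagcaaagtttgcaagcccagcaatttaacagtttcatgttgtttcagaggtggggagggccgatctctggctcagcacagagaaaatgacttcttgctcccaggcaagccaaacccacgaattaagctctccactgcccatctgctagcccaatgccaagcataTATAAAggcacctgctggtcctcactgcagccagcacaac
Krt27: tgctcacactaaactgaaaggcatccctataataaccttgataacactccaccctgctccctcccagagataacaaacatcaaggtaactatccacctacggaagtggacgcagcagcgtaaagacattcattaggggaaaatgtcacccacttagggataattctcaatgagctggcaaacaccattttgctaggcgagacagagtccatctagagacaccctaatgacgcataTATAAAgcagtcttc
The TATA box core begins 40 bases before the start of Krt71 and 15 bases before that of Krt27. It was present in 12.4% of all 32851 promoters, in 8.03% of those of tested genes, in 111 of 285 promoters (38.9%) of genes higher by the study's limits, in 28 of 152 (18.4%) of genes lower by them, and in 37 of 46 promoters (80.4%) of the keratin-associated family. Inner root sheath genes held it in 7 of 12 promoters, the keratins Krt25, Krt26, Krt27, Krt28, Krt71, Krt72 and Krt73. Hair shaft keratins held it in 6 of 9. These figures overlap, since 51 keratin-associated, 15 hair shaft and 10 inner root sheath genes are themselves among the genes higher by the study's limits. Lists that fell held it as well, in 8 of 23 chemokine, 8 of 23 cytokine and 9 of 31 neutrophil promoters. The LEF/TCF motif, which 4.46% of all promoters hold, was in 5 of the 9 hair shaft keratin promoters, 7 of 46 of the keratin-associated family, 1 of 12 of the inner root sheath and 0 of 20 of the follicle regulators. It was in 9.12% of promoters of genes higher and 7.24% of genes lower by the study's limits.

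The regulators of the growing follicle rose by less. Of 22 genes 21 rose, with a median of 1.61. Hoxc13, the homeobox factor that acts on hair keratin genes, had 38, 26, 28 and 33 counts on day 5 and 311, 336, 356 and 407 counts on day 7, 10.9-fold higher (log2 3.45 ± 0.15, adjusted p = 6.62e-10). Msx2, a homeobox factor of the hair matrix, rose 11-fold, and Foxn1, the factor mutated in nude mice, 4.81-fold from 1.64 ± 0.339 to 7.80 ± 1.18 CPM. Lef1, the nuclear partner of beta-catenin, rose 3.68-fold from 0.999 to 1.95 CPM to 4.37 to 5.28 CPM. Shh, the growth signal of the hair matrix, rose 7.27-fold, from 4 to 12 counts a library to 63 to 81. The groups did not overlap for any of these 5. Gli1 and Ptch1, which are targets of Shh, rose by 1.35 and 0.77. The largest rises of the list were those of genes of the differentiating shaft, Gprc5d (7.75), Dsg4 (6.81), S100a3 (6.14) and Padi3 (5.03). Edar, a receptor of placode formation, did not pass the test at 0.67.

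Stem cell and dermal papilla genes changed modestly. Of 15 bulge and isthmus genes 9 rose and 1 fell, where 15.7% and 15.1% of all tested genes did, with a median of 0.41. Lgr5, which marks the lower bulge and the hair germ, gave 8.66, 10.9, 12.2 and 11.6 CPM on day 5 and 32.4, 25.5, 27.9 and 23.8 CPM on day 7, 2.56-fold higher (log2 1.36 ± 0.12, adjusted p = 5.83e-07). Krt15, the bulge and basal keratin, went from 225 ± 8.18 to 264 ± 7.71 CPM (log2 0.25). Postn had the largest rise of this list and is made by dermal fibroblasts as well, and Plet1 of the isthmus fell (-0.38). Of 14 dermal papilla genes 6 rose, where 15.7% of all tested genes did, led by Corin at 3.08 (0.307 ± 0.161 to 2.60 ± 0.797 CPM). Another 2 fell, near the 15.1% of all tested genes, led by Fgf7 at -0.71, and 1 to 2 fell when a library was left out. Melanocyte genes rose in 8 of 10, where 15.7% of all tested genes did, with Tyr, the rate-limiting enzyme of pigment synthesis, at 1.98 (0.570 ± 0.0555 to 2.24 ± 0.241 CPM) and Tyrp1 at 1.22 (2.33-fold). The sum of the list went the other way, from 172 to 184 CPM on day 5 to 140 to 149 CPM on day 7. Ednrb, which melanoblasts share with endothelium, made up most of the day 5 sum and fell (-0.91, from 127 to 66.7 CPM). Of the pigment genes not tested, Oca2 had 0 counts on day 5 and 5 to 13 on day 7, and Gpr143 at most 4 and 11. The sebaceous gland, which opens into the same follicle, had 4 genes higher, led by Scd1 (0.59), and 5 lower, led by Plin2 (-1.19), of 15, with a median of 0.048 and shares of 15.7% higher and 15.1% lower over all tested genes.

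Most hair shaft transcripts of day 7 were lower on day 10. The 16 hair shaft keratins summed to 5.77 ± 1.03 CPM on day 5, 489 ± 90 CPM on day 7 and 107 ± 6.06 CPM on day 10 (SD, n = 4). Most of the day 10 sum came from Krt85 and Krt35, while others, such as Krt34 (0.159 CPM on day 5 and 0.183 CPM on day 10), were near their day 5 level. In a comparison of day 10 with day 7, which was added after the values were seen and shares the day 7 libraries, 21.2% of all 17543 tested genes were lower on day 10 and 18.5% higher. Of the hair shaft keratins 14 of 16 were lower (median -4.99) and 1 was higher, Krt35 (0.72, to 36.9 ± 1.42 CPM). Krt85 did not pass the test, with 49.1 ± 11.8 CPM on day 7 and 55.9 ± 4.15 CPM on day 10 (log2 0.16, adjusted p = 0.315). The 51 keratin-associated genes had a median of -8.39, but most of them had entered the test through their day 7 counts, so their fall from that day is given as a description. Of the inner root sheath genes 9 of 12 were lower (median -1.995). Regulators, in contrast, were higher on day 10 in 14 of 22 and lower in 6. Krt86 averaged 0.315 CPM on day 5 and 60 ± 8.28 CPM on day 7, then 0.126 ± 0.0213 CPM on day 10 before reaching 149.9 ± 30.4 CPM on day 12 (SD, n = 4). Krt71 had means of 3.93, 393, 81.1 and 1567 CPM on the same days, so that its low on day 10 was shallower. Hoxc13 did not dip, at 0.82, 8.90, 13.01 and 61.1 CPM, nor did Lef1, at 1.33, 4.85, 12.1 and 36.5 CPM. Foxn1 fell from day 7 to day 10 by 1.37 on the log2 scale.

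On the scale of summed CPM, the keratin-associated family averaged 656 in the earliest libraries, followed by 1.88, 6.11, 1104, 4.29, 3383 and 3699 in those of days 3, 5, 7, 10, 12 and 14. The earliest libraries differed widely, from 78.2 to 1748, whereas those of day 7 lay between 924 and 1297. The mean of day 7 therefore lay inside the range of the earliest libraries. Mice were killed at each time point, and the follicle phase of the marginal skin was not measured, so its part in the values of day 7 was not tested. Neutrophil genes, summed, averaged 285 CPM in the earliest libraries and 7678, 3849, 1472, 819.5 and 254 CPM in those of days 3, 5, 7, 10 and 12, a fall at each step after day 3. The ratio of the day 7 to the day 5 sum was 0.382.

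**Figure D5:**
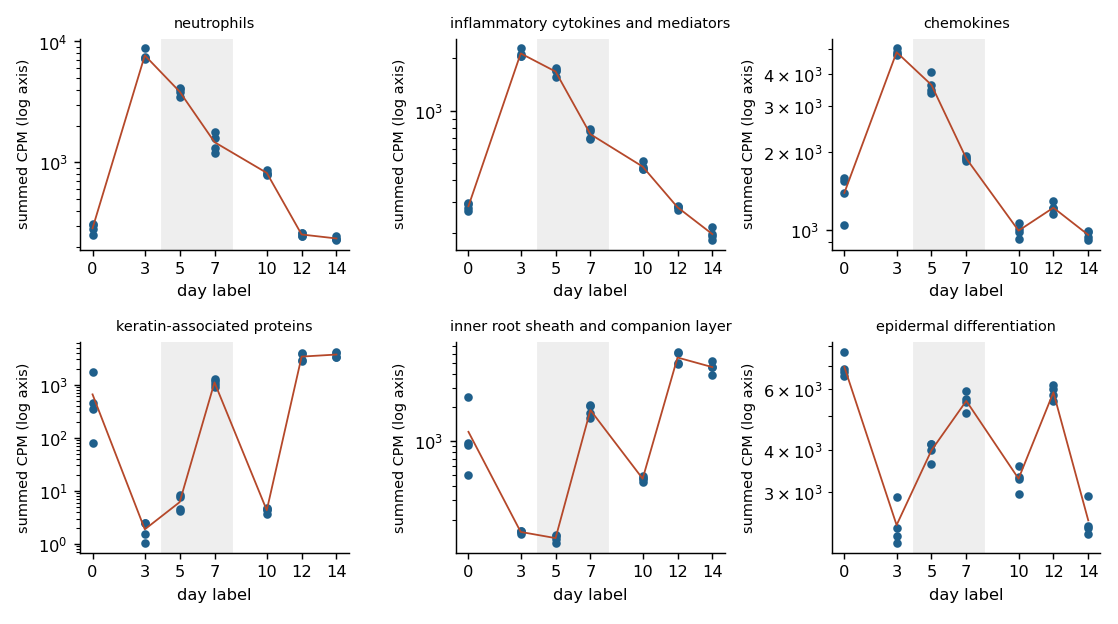
Summed CPM (y axis, log scale, its range differing between panels) of 6 gene lists in each of 4 libraries a day (points) and their mean (line), against the day label (x axis), with days 5 and 7 shaded. Neutrophil and cytokine sums fall at each step after day 3, and keratin-associated and inner root sheath sums rise from day 5 to day 7, are lower on day 10 and are high on day 12.

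Epidermal differentiation genes rose together by a small amount. Of 21 tested genes 18 rose and none fell, with a median of 0.51. Krt10, the keratin of suprabasal cells, gave 1102, 947, 1096 and 1068 CPM on day 5 and 1420.0, 1566, 1506 and 1644 CPM on day 7, 1.47-fold higher (log2 0.56 ± 0.064, adjusted p = 1.12e-05). Lor, loricrin of the cornified envelope, rose 1.46-fold from 165 ± 26.5 to 238 ± 28.9 CPM, and Calml3, a calmodulin-like protein of differentiating epithelium, had the largest rise (0.87). Of genes of the migrating wound edge 8 of 20 were lower and 4 higher, where 15.1% and 15.7% of all tested genes were. Krt6a, the stress keratin, fell 1.38-fold, from 584 to 688 CPM to 400.3 to 533 CPM. Krt16, its partner, gave 467, 337, 465 and 502 CPM against 312, 379, 297 and 397 CPM, groups that overlapped (log2 -0.34 ± 0.12, adjusted p = 0.0404), and the call was lost when any of 5 libraries was left out (day 5 replicates 1, 3 and 4, day 7 replicates 1 and 3). Serpinb2, an inhibitor of plasminogen activators, fell most (-1.52), and the collagenase Mmp13 rose most (0.82). Among basal genes Cdh3 rose (0.53), Lamb3 fell (-0.44) and 6 of 9 did not pass the test, while 3 fell without day 5 replicate 4. Krt2, a keratin of differentiated epidermis, had at most 10 counts in any library and was not tested.

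Matrix and contractile genes rose. Of 20 fibroblast matrix genes 16 were higher and 1 lower, with a median of 0.46, and of 12 myofibroblast genes 10 were higher and 1 lower, with a median of 0.77. Postn, periostin, gave 1438, 1323, 1374 and 1251 CPM on day 5 and 3502, 3731, 3249 and 3329 CPM on day 7, 2.59-fold higher (log2 1.37 ± 0.062, adjusted p = 6.53e-10). Lrrc15, a membrane protein of activated fibroblasts, rose 3.13-fold, from 149.5 ± 19.9 to 463 ± 22.4 CPM, and Col12a1 rose by 1.14, with day 5 replicate 4 lower than the other day 5 libraries for both genes. The members that fell were Lox, which cross-links collagen (-0.32), and Tnc, tenascin C of early granulation tissue (-0.35), whose groups overlapped and whose call was lost without day 5 replicate 1 (adjusted p = 0.0525). Without day 5 replicate 4, 2 genes of each list fell. Endothelial genes were lower in 11 of 14 (median -0.33, and 13 without day 5 replicate 4), Lyve1 of lymphatic vessels and resident macrophages most (-0.97), while Prox1, the lymphatic transcription factor, rose (0.82). Among pericyte genes Rgs5 rose (0.37) and Des, which muscle shares, fell (-0.67). Of 9 pericyte genes 2 were higher and 2 lower, near the 15.7% and 15.1% of all tested genes, and 4 and 3 without both replicates numbered 4.

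Glycolysis and brown fat genes fell, while most muscle, nerve, erythroid and cell cycle genes did not pass the test. All 16 genes of glycolysis and the response to low oxygen fell, with a median of -0.69, from Bnip3 at -0.25 to Adm, a vasodilator peptide, at -0.98 (18.1 ± 2.10 to 9.08 ± 0.771 CPM). Of 8 brown fat genes 5 fell, led by Ucp1, the uncoupling protein of thermogenic fat, which gave 1687, 1757, 1798 and 1992 CPM on day 5 and 506, 583, 547 and 577 CPM on day 7 (3.24-fold lower, adjusted p = 1.20e-10), and Zic1 rose (0.28), with 3 genes higher when day 5 replicate 4 was left out. The labels do not state the depth of the excised block below the skin. Lep, leptin of white adipocytes, rose 3.79-fold, from 9.88 to 12.8 CPM to 39.1 to 44.5 CPM, while Fabp4 fell (-0.64), and 5 of 12 white adipocyte genes did not pass the test, with 4 lower, or 6 without both replicates numbered 4. Of 16 skeletal muscle genes 3 were higher, where 15.7% of all tested genes were, Pvalb most (0.63), and 13 did not pass the test, with a median of -0.018. Without day 5 replicate 4 they numbered 5 higher and 4 lower, with a median of 0.089. Cell cycle genes did not pass the test in 21 of 24, with Rrm2 (-0.24) and Mcm3 lower and Kif11 (0.21) higher, the last lost without day 5 replicate 2, 3 or 4 or any day 7 replicate. Schwann cell and erythroid genes each had 1 member higher, Egr2 (0.58) and Slc4a1 (1.65), but without day 5 replicate 4 the erythroid count was 5 of 6.

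Genes of necroptosis, the lytic form of programmed cell death that MLKL executes, were lower in 7 of 10, where 15.1% of all tested genes were, with none higher and a median of -0.38. Mlkl gave 25.8, 25.8, 27.1 and 27.5 CPM on day 5 and 19.6, 20.1, 19.8 and 22.1 CPM on day 7, 1.29-fold lower with no overlap (log2 -0.37 ± 0.066, adjusted p = 0.00074). Ripk3, the kinase that activates MLKL, fell 1.39-fold, from 32.1 ± 1.33 to 22.8 ± 1.33 CPM (adjusted p = 8.20e-05). Tnfaip3 and Zbp1 were the members with the largest falls, and Ripk1, Fadd and Cyld did not pass the test.

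The change from day 5 to day 7 was then tested against the change from day 10 to day 12, an interval of equal length that shares no library with it. Of 17543 genes, the difference was above 0 in 3363 (19.2%) and below 0 in 3183 (18.1%) at an adjusted p under 0.05. Of the 8 genes singled out for this test, S100a8, Il1b, Cxcl2 and Krt16 fell more in the later interval. S100a8 changed by -1.23 from day 5 to 7 and by -4.14 from day 10 to 12 (difference 2.91 ± 0.23, adjusted p = 6.80e-10), Il1b by -1.60 and -3.44, Cxcl2 by -1.54 and -5.59, and Krt16 by -0.34 and -3.38. The macrophage genes Adgre1 and Chil3 fell more in the earlier interval. Adgre1 changed by -0.59 and 0.15 (difference -0.74 ± 0.076, adjusted p = 4.81e-08), and Chil3 by -4.18 and -0.39 (difference -3.79 ± 0.13, adjusted p = 3.43e-16). Of the follicle genes, Krt71 rose more in the earlier interval (6.65 against 4.28) and Krt86 in the later (7.57 against 10.19, difference -2.61 ± 0.60, adjusted p = 0.00145), from the few counts it had on days 5 and 10. Of 16 hair shaft keratins 7 lay below 0, Krt86 among them, and 2 above, Krt85 (3.04) and Krt35 (3.22). All 8 passed, but other named genes of the same kinds did not, among them Tnf (difference 0.011, adjusted p = 0.968), Krt33b (0.053), Lef1 (0.27), Krt15 (-0.011), Ripk3 (0.13), Lor (0.17) and Tyrp1 (-0.25). Inflammatory genes went both ways, and Lcn2 (-2.27), Ccl2 (-1.78) and Il6 (-1.70) fell more in the earlier interval. Of 32 neutrophil genes 15 lay above 0 and 8 below, and of 27 cytokines 9 and 10. Of 29 chemokines 6 lay above 0 and 16 below, and of 20 IL-1 receptor and NF-kB genes 1 and 16.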

How the data were processed

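Total RNA was extracted with TRIzol, the VAHTS Universal V6 kit was used for the libraries, and the authors deposited a table of raw read counts and a table of FPKM values for 29068 gene symbols in 28 libraries, 4 for each of 7 days. The submitters' processing notes name fastp, R 3.2.0 and mm10. The aligner, counting tool, annotation and strand setting are not given in the sources used here, so overlapping and near-identical genes can share reads. The series' design text speaks of 5 repeats per day, and 4 were analysed here. Library totals of the 8 libraries of days 5 and 7 ranged from 39321598 to 40368801 counts. Intervals and floors (3 counts) cover counting error only. The deposited FPKM values were used for levels per length and, with the counts, for gene lengths.

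Counts of the 8 libraries were fitted in edgeR 4.0.16 (R 4.3.3) with TMM normalization, filterByExpr on the 2 days (16680 genes kept, and 2710 had no count), and the quasi-likelihood test, two-sided, without covariates, with Benjamini-Hochberg adjustment over all tested genes. The 2 days were fitted alone because the biological coefficient of variation was 9.63% in them and 23.2% in the earliest libraries. CPM used TMM factors over all 28 libraries. Single genes whose 4 and 4 libraries do not overlap have an exact two-sided permutation p of 0.0286, the smallest that 70 arrangements allow. The interval test and the comparison of day 10 with day 7 were fitted on 16 libraries. Gene length offsets were smooth curves (lowess, span 0.3) of each library's deviation. The scripts were tested on simulated counts.

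Members and gene lists were chosen with earlier results of these data known. Named genes were a list of 40, the 5 largest rises and falls with a mean of at least 10 CPM and no overlap, and the member of each list with the largest rise and fall at 1 CPM or more. Other genes named were chosen after their values were seen, and 1 gene of these lists is not reported here. Of the lists, Krt74, Cxcl11, Mx1, Mx2, Tpsab1 and 4 T cell receptor genes had no row. Promoters were matched by symbol for 13098 of 16680 tested genes. Alternatives were other size factors, upper quartile or library totals, other filters, DESeq2 1.42.0, fits of all 28 or of 24 libraries, a replicate block, Xist as a covariate, length corrections, and libraries left out. Same-numbered libraries of days 5 and 7 had deviations correlated at 0.034, 0.029, 0.021 and 0.25, against -0.14 to 0.099 for unlike numbers. No pair of libraries agreed within sampling noise (lowest median chi-square 1.46, against 0.455).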

Additional observations from a re-analysis of the deposited data

Results flagged for a closer look

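In 14 of 200 groups of 4 libraries, covering 100 named genes on the 2 days, the highest or lowest library stood apart from the other 3, where chance gives about 10. Day 5 replicate 4 did so for Col12a1 (383 CPM, the others 603 to 659), Tnc (669, the others 891 to 929), Shh (0.108, the others 0.286 to 0.312), Fabp4 (4236, the others 3436 to 3540) and Krt34 (0.351, the others 0.0780 to 0.104). Day 7 replicate 4 did so for Lrrc15 (429.5 CPM), Prox1 (4.70), Ripk3 (20.9), Pvalb (365) and Krtap19-4 (4.40), the first 3 of these being lower than the other libraries and the last pair higher. These are the 2 libraries with the trend by gene length, and its part in these values was not tested. Day 7 replicate 2 stood apart for Il6 (1.01 CPM, the others 1.53 to 1.66) and Tnfaip3 (31.0, the others 24.3 to 24.7), day 5 replicate 2 for Krt71 (2.55, the others 4.32 to 4.45) and day 5 replicate 1 for Egr2 (13.6, the others 17.1 to 17.4).

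The change from day 5 to day 7 differed from that from day 10 to day 12 in 3363 genes above 0 and 3183 below 0, by the test of the difference itself. Among genes singled out for it the difference on the log2 scale was 2.91 for S100a8, 1.84 for Il1b, 4.05 for Cxcl2, 3.04 for Krt16 and 2.38 for Krt71, and -0.74 for Adgre1, -3.79 for Chil3 and -2.61 for Krt86. These do not stand for inflammatory genes at large, since others lay below 0, such as Lcn2 (-2.27), Ccl2 (-1.78) and Il6 (-1.70).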

How the results depend on the processing

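The counts under the study's limits depended on the filter on low counts, with 706 genes higher and 478 lower without a filter, and 111 higher and 107 lower when at least 10 counts were required in every library, which removes genes near 0 on 1 day. All other counts over all genes stayed within 1.5 times, and no named gene changed sign. List medians near 0 did so when a single library was left out, with ranges of -0.071 to 0.049 for basal epidermis, -0.0051 to 0.117 for mast cells and -0.043 to 0.089 for skeletal muscle. With 1 library left out at a time, 2185 to 3028 genes were higher and 2171 to 3013 lower, 336 to 375 and 173 to 205 under the study's limits, and 6091 to 7493 genes differed between the intervals. Same-numbered libraries of the 2 days share only a number, and with it as a replicate block 3117 genes were higher and 3046 lower, 5105 of the 5144 calls among them. The calls of Eif2s3y, Gbp3, Il1f6, Kif11, Krt16, Mrgprb2 and Tnc were each lost under 2 or more settings, and those of Alox15, Krt15, Krt6a, Lox and Rrm2 in the fit of all 28 libraries. Hair shaft keratins had from 2 (Krt40) to 188 (Krt32) counts over the 4 day 5 libraries, and the folds of those with few counts are imprecise.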
